A study of Mus musculus with 3 samples.

Results

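The interferon module described here holds 57 genes: 22 signalling genes (4 receptor chains, 4 JAK kinases, 6 STAT and 8 interferon regulatory factor genes) and 35 induced effectors. They were chosen by gene symbol, with earlier results of these data known, and all 57 were found among the 24421 gene lines of the count tables. SB28 is a cell line used as a mouse model of glioblastoma, of C57BL/6 background and with brain given as its source. It was sampled here as 3 RNA-seq libraries of 1 group, labelled replicates 1, 2 and 3. The labels name no treatment, interferon exposure, time or control, and they do not tell whether the replicates came from separate cultures. The spread between them may therefore be technical, and members can be compared only with each other and from library to library.

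Interferons are secreted antiviral cytokines. Type I interferons bind IFNAR1 and IFNAR2, and interferon gamma binds IFNGR1 and IFNGR2. The receptors activate JAK kinases, which phosphorylate STAT proteins. A complex containing STAT2 and IRF9 binds the interferon-stimulated response element (ISRE) of target genes, while STAT dimers bind the gamma-activated site (GAS). Many tissues hold a low tonic output of this pathway without infection, and in tumour cells it bears on antigen presentation and on recognition by immune cells.

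Replicates 1, 2 and 3 held between 28990128 and 36019009 counts assigned to genes. Values are in CPM, a gene's count scaled to the assigned total of its library, given in the order of replicates 1, 2 and 3, and means are ± SD over the 3 libraries. Replicate 3 stood apart from the others. Per gene, 1.98% of 12746 genes differed between replicates 1 and 2 beyond counting noise, against 64.1% between replicates 1 and 3 and 62.8% between replicates 2 and 3. Reads assigned to no annotated feature made up 6.54% of replicate 3, against 5.19% and 5.27% in replicates 1 and 2. Alignments marked as not unique made up 9.58%, against 8.93% and 8.86%. All 6 tumour line markers were detected, led by Vim (5404 ± 100.1 CPM), Cd44 (870.1 ± 75.05), Nes (427 ± 20.2) and Pdgfb (270.7 ± 22.8). None of 6 mature neural markers was detected in all libraries, and 4 had 0 counts. Of 14 blood and immune cell markers, 0 were detected and 6 had 0 counts, and their summed level was 0.666, 0.310 and 0.858 CPM.

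Detection meant at least 1 CPM in each of the libraries. Of the 57 members, 43 were detected, 4 were above that level in some libraries only, and 10 lay below it in all. The share was 75.4%, against 46.6% of all gene lines. Detection was 18 of 22 in the signalling group and 25 of 35 in the effector group. The median over all 57 members, detected or not, was 3.22 CPM per kilobase of exon, with 6.74 for signalling and 1.92 for effector members. Over all gene lines with an exon length, detected or not, the median was 0.223, and among detected genes alone it was 7.57. A gene was called varying between libraries when its 3 counts departed from equal levels beyond counting noise (chi-square test, Benjamini-Hochberg adjustment over the 12737 genes whose counts averaged 10 or higher). Of these genes, 65.8% were called, 32.0% were called with the lowest value in replicate 3, and 32.6% with the highest value there. Of 51 members tested, 48 were called, 45 with the lowest value in replicate 3 and 2 with the highest. The test compares these libraries and not conditions. Without replicate 3, only Trim21 of 52 members tested was called (adjusted p = 0.035), against 1.89% of all genes tested. The other 47 calls were lost.

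**Figure D1:**
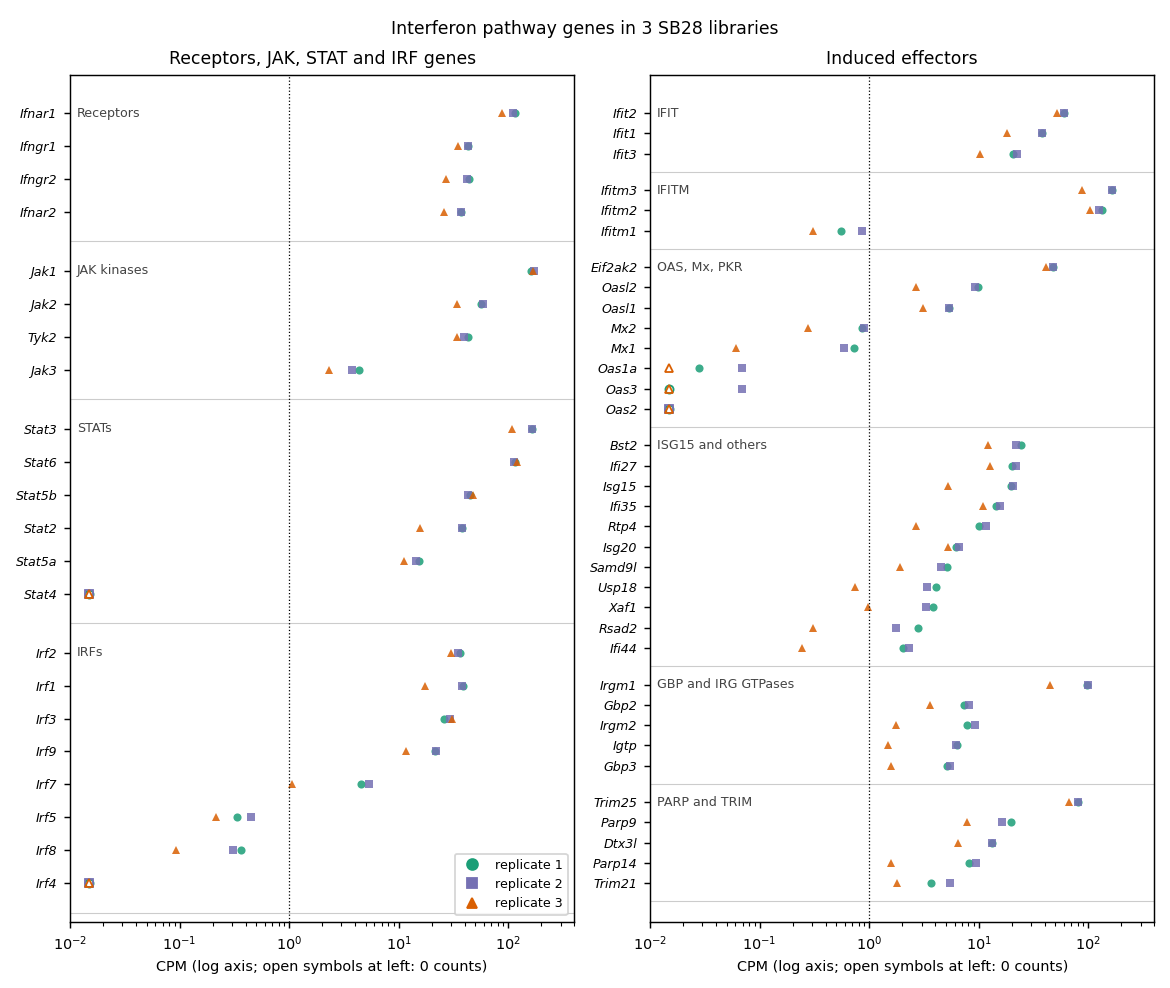
CPM of each member (log axis) in replicates 1, 2 and 3, grouped by role and ordered by mean, with the detection level of 1 CPM as a dotted line and open symbols for 0 counts. Replicates 1 and 2 nearly coincide for most members, and replicate 3 lies to their left for all but Jak1, Stat5b, Stat6 and Irf3 among the members tested.

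All 4 receptor chains were detected. Ifnar1, the first chain of the type I receptor, had 115.5, 110.1 and 88.4 CPM. Its partner Ifnar2, which binds the ligand tightly, had 36.8, 37.2 and 26.1 CPM. The gamma receptor chains had 42.5, 42.4 and 34.8 CPM for Ifngr1, which binds the ligand, and 43.9, 42.4 and 26.9 CPM for Ifngr2, the signalling partner. Each of the 4 was called and lowest in replicate 3, where log2 ratios to replicate 1 ran from −0.70 (Ifngr2) to −0.28 (Ifngr1). Per base of exon, Ifnar1 lay 1.77-fold above Ifnar2 (range over libraries 1.66 to 1.90). Ifngr1 lay 1.43-fold above Ifngr2 (1.28 to 1.71), a difference that exceeded the spread per base but not without length scaling or without replicate 2. Ifnar2, Ifnar1 and Ifngr2 lie together on chromosome 16 between 91372783 and 91565623 (GRCm38), and 9.46% of the Ifnar2 exon bases are shared with the read-through gene Gm21970.

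The JAK kinases bind the receptor tails and phosphorylate them. Jak1, which serves both receptor types, was the most abundant signalling member with 161, 171 and 169 CPM. It was called (adjusted p = 0.0053) with its lowest value in replicate 1. That call was lost without replicate 1, without replicate 3 and with replicates 1 and 2 summed. Jak2, the partner of Jak1 in gamma signalling, had 56.2, 58.2 and 33.8 CPM. Tyk2, its partner in type I signalling, had 42.6, 39.7 and 33.7 CPM. Jak1 lay 2.42-fold above Jak2 (1.99 to 3.47) and 4.12-fold above Tyk2 (3.59 to 4.76) per base, both larger than the spread. Jak3, which pairs with the common gamma chain of interleukin receptors and is best known from lymphocytes, stood at 4.36, 3.76 and 2.30 CPM. Of its exon bases, 7.55% are shared with Insl3, itself at 0 counts.

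All STAT genes listed but Stat4 were detected. Stat4, a lymphocyte factor of interleukin-12 signalling, had 0 counts, which leaves room for a level of 0.103 CPM in replicate 2. Stat3, a factor of interleukin-6 family signalling, had 164, 166 and 108 CPM. Stat6, the interleukin-4 factor, had 116, 112 and 119 CPM and was not called (adjusted p = 0.055), but passed with DESeq2 size factors, with no filter on low counts, without replicate 1 and with replicates 1 and 2 summed. Per base Stat6 lay 1.75-fold above Stat3 (1.47 to 2.39), while without length scaling Stat3 lay above Stat6, and the difference did not exceed the spread without replicate 1. Stat2, the partner of IRF9 in the complex that binds the ISRE, had 37.6, 38.0 and 15.6 CPM. Its log2 ratio of −1.27 between replicates 3 and 1 was the most negative of the STAT genes. Stat5b had 44.3, 42.4 and 47.7 CPM and Stat5a 15.3, 14.5 and 11.1 CPM, so that Stat5b was highest and Stat5a lowest in replicate 3. The Stat5b call (adjusted p = 0.01) was lost without replicate 2. Stat5b lay 4.28-fold above Stat5a per base (3.74 to 5.54). These neighbours share sequence: 11.0% of Stat5b 50-base stretches also occur in Stat5a transcripts.

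Among the interferon regulatory factors, Irf1, Irf2, Irf3, Irf7 and Irf9 were detected. Irf2, a factor that can oppose IRF1, had 36.2, 35.1 and 29.97 CPM. Irf1, an early gamma-induced activator, had 38.6, 37.7 and 17.4 CPM and was called and lowest in replicate 3, with a log2 ratio to replicate 1 of −1.14 (95% counting interval −1.29 to −1.003). Irf9, the DNA-binding part of the STAT2 complex, had 21.2, 21.7 and 11.6 CPM. Per base Stat2 lay 1.46-fold above Irf9 (1.22 to 1.61), and this exceeded the spread in all 3 libraries together but not without replicate 1 or without replicate 2. Irf3, the constitutive factor that responds to nucleic acid sensors, had 25.7, 29.5 and 30.6 CPM and was the only member of this group called with its highest value in replicate 3, a call lost without replicate 1. Irf7, the interferon-inducible factor that amplifies type I interferon production, had 4.53, 5.35 and 1.07 CPM, 4.21-fold lower in replicate 3 than in replicate 1. The ratio of Irf3 to Irf7 per base was 10.5 on average and ran from 6.04 to 30.9 over libraries. The factors best known from blood cells were near the floor: Irf5 had 12, 13 and 7 counts, Irf8 had 13, 9 and 3 counts, and Irf4 had 0.

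Other genes of the pathway were read from lists of symbols, which were chosen with earlier results of these data known. Of 12 interferon ligand genes, including Ifnb1, Ifng and the alpha genes Ifna1, Ifna2, Ifna4 and Ifna5, 11 had 0 counts in every library. The exception, Ifnz, had 4 counts in all. Il10rb, a chain of the lambda receptor shared with interleukin-10, was detected at 29.7 ± 4.46 CPM, while its specific partner Ifnlr1 had 6 counts in all. All 12 negative regulators of JAK-STAT signalling were detected. The phosphatases Ptpn11 (289.7 ± 10.01 CPM) and Ptpn1 (89.5 ± 1.91), Pias2 (85.7 ± 6.94) and Ptpn2 (40.01 ± 1.31) led them. Of these 12, 9 were called (75%, against 65.8% of all genes tested), 7 lowest and 2 highest in replicate 3; the latter were Ptpn11 and the feedback inhibitor Socs1 with 9.80, 9.62 and 13.9 CPM. All 11 sensors and adaptors were detected, led by Mavs (80.7 ± 1.07), Tbk1 (39.9 ± 3.88), Ddx58 (35.3 ± 11.7) and Tmem173, encoding STING (28.9 ± 7.32). Of the 11, 9 were called (81.8%), 7 lowest and 2 highest in replicate 3, against 32.0% lowest and 32.6% highest among all genes tested.

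The effectors were led by the IFITM genes, small membrane proteins that hinder virus entry. Ifitm3 had 165, 163 and 87.0 CPM, and Ifitm2 had 133, 125 and 103 CPM. Per kilobase of exon they reached 204 ± 65.5 and 184 ± 23.4 CPM, the highest levels of all 57 members. Their order turned between libraries, with Ifitm3 above Ifitm2 in replicates 1 and 2 and below it in replicate 3 (fold per base 0.815 to 1.26). Ifitm1 had 20, 25 and 10 counts, was called (adjusted p = 0.025, lost without replicate 2) and lay 367-fold below Ifitm2 per base (238 to 535). The 3 genes are neighbours on chromosome 7 between 140954837 and 141010770. Of Ifitm2 50-base stretches, 48.5% occur in transcripts of other annotated genes, so its level is uncertain.

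The IFIT genes, whose proteins bind viral RNA, lie side by side on chromosome 19 between 34550694 and 34650009. Ifit2 had 59.6, 59.6 and 52.2 CPM, Ifit1 had 37.5, 37.7 and 17.9 CPM, and Ifit3 had 20.5, 22.1 and 10.3 CPM. All 3 were called and lowest in replicate 3. The size differed within the cluster, with log2 ratios of replicate 3 to replicate 1 of −1.06 for Ifit1, −0.995 for Ifit3 and −0.19 for Ifit2. The counting interval of Ifit2 (−0.28 to −0.10) did not overlap those of Ifit1 (−1.204 to −0.92) and Ifit3 (−1.19 to −0.81). These intervals cover counting error only. The log2 ratio of Ifit2 to Ifit1 per base was 0.10, 0.09 and 0.98, and its mean did not exceed the spread between replicates. That rule compares the levels of the genes, so it cannot decide whether their differences in replicate 3 were unlike. Per base, Ifit1 lay 1.16-fold above Ifit3 (1.12 to 1.201). Ifit3 shares 51.2% of its 50-base stretches with Ifit3b, which had 5.14, 5.24 and 2.97 CPM, and reads placed equally well at both genes may be missing from each.

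The promoters of the effectors were searched for the letters at the core of the 2 elements that the pathway acts through. RefSeq promoter windows, 250 bases before to 50 after a gene's start (GRCm38.p6), were given for 49 of the 57 members. The ISRE core was searched on both strands as GAAA, any 2 bases and GAAA again, which reads TTTC, any 2 bases and TTTC on the other strand. The GAS core was TTC, any 3 bases and GAA, which reads the same on both, and matches of the motifs may overlap. The ISRE core occurred in 16 of 27 effector genes (59.3%) and in 3 of 22 signalling genes (13.6%), against 3.99% of all 27025 genes with windows of this length. The GAS core occurred in 9 of 27 effector and 5 of 22 signalling genes, against 9.55% of all. A match is a run of letters and was not tested for binding. Among effectors tested, the median log2 ratio of replicate 3 to replicate 1 was −1.06 over 14 genes with an ISRE core and −0.85 over 11 without one. For the GAS core the order was the other way, with −0.65 over 8 genes with it and −1.06 over 17 without it. The median was −1.89 over the 7 effectors with no window: Mx1, Mx2, Usp18, Rtp4, Ifi27, Parp9 and Parp14.

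Stretches of called members that carry an ISRE core are shown. All 14 effectors tested with a core in the window were called and lowest in replicate 3. So were 10 of 11 without one and all 7 with no window, against 32.0% of all genes tested.
Ifit1, chr19:34640729-34640888, plus strand: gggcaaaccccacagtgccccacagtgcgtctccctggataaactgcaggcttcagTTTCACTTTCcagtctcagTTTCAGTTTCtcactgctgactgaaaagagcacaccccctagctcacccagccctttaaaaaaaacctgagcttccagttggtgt
Ifit3, chr19:34583369-34583528, plus strand: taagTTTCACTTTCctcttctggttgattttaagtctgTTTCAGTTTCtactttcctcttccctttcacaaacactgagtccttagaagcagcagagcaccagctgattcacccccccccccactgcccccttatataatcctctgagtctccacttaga
Ifitm2, chr7:140955962-140956121, minus strand: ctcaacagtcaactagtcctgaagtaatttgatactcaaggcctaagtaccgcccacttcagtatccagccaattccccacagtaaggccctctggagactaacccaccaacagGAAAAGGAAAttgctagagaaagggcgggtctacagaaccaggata
Isg15, chr4:156200819-156200978, minus strand: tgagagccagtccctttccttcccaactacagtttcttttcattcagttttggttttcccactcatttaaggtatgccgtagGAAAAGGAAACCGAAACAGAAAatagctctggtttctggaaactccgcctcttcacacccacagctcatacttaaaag
Rsad2, chr12:26456453-26456612, minus strand: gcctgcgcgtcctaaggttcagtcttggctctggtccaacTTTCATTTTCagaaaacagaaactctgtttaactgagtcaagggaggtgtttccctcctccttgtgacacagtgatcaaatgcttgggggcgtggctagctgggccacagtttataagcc
Bst2, chr8:71537473-71537632, minus strand: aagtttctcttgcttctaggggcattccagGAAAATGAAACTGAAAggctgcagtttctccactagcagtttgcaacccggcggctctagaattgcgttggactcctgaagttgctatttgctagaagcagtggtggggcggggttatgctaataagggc
Gbp3, chr3:142559884-142560043, plus strand: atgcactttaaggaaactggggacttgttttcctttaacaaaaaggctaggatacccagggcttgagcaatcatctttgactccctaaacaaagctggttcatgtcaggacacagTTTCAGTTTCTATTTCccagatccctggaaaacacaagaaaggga
Igtp, chr11:58199396-58199555, plus strand: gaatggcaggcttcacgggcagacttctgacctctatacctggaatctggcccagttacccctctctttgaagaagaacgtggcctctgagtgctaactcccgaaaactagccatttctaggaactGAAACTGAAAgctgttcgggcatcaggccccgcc
Irgm2, chr11:58214817-58214976, plus strand: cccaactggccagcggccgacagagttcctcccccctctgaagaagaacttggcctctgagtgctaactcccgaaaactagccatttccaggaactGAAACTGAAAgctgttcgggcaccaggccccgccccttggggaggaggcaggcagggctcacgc

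These 160-base stretches end at the base before the RefSeq start and run 5′ to 3′ on the gene's strand, with each ISRE core in capitals. They are the called members with a core in that stretch, except Gbp2 and Irgm1, whose stretches hold 61 and 160 bases of the gene's own GENCODE exons, over the 30 allowed here. Of those shown, Ifitm2 holds 26 such bases and Ifit1 and Gbp3 hold 18 each, since the GENCODE start lies before the RefSeq start. Overlapping cores merge into 1 run in Isg15, Bst2 and Gbp3, and Ifit1 and Ifit3 carry 2 separate cores. The cores of the paralogues Igtp and Irgm2 have the same letters, and both begin within 64 bases of the start.

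**Figure D2:**
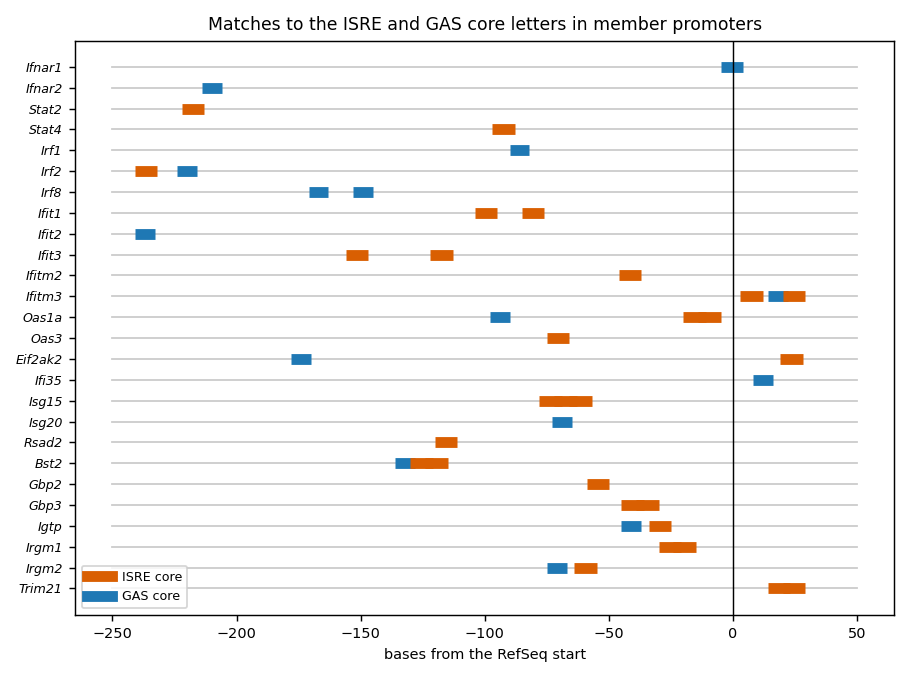
Positions of the ISRE and GAS core letters, in bases from the RefSeq start (0), in the promoter windows of members with at least 1 match; grey lines mark the windows. ISRE cores lie before the start in most effectors with a match and after it in Ifitm3, Eif2ak2 and Trim21.

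The genes for double-stranded RNA response were split. Eif2ak2, encoding the kinase PKR that stops translation, had 47.2, 47.5 and 41.0 CPM. The OAS-like genes Oasl2 (9.86, 9.31 and 2.67 CPM) and Oasl1 (5.33, 5.31 and 3.10 CPM) were detected, and Oasl1 lay above Oasl2 per base by a factor (1.32 to 2.84) that did not exceed the spread. The oligoadenylate synthetase genes Oas1a, Oas2 and Oas3, whose products activate RNase L, had 3, 0 and 2 counts over the 3 libraries together. For Oas1a, 57.6% of 50-base stretches also occur in Oas1g, itself at 0 counts. The dynamin-like GTPase genes Mx1 (26, 17 and 2 counts) and Mx2 (31, 26 and 9 counts) lay below 1 CPM. C57BL/6 mice carry a disrupted Mx1 allele, and GENCODE lists Mx2 as a polymorphic pseudogene. The log2 ratio of Mx1 between replicates 3 and 1 was −3.55, with a counting interval from −6.67 to −1.56.

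Isg15, a ubiquitin-like modifier, and Usp18, the protease that removes it and restrains the receptor, were both called. Isg15 had 19.5, 20.4 and 5.24 CPM, so that the value in replicate 3 was 3.70-fold below that in replicate 1. Usp18 had 4.05, 3.38 and 0.735 CPM, a 5.50-fold difference. Isg15 lay 21.6-fold above Usp18 per base (17.7 to 25.8), larger than the spread. Rsad2, encoding viperin, had 2.78, 1.76 and 0.306 CPM, and Ifi44 had 2.03, 2.31 and 0.245 CPM. They were respectively 9.04-fold and 8.25-fold lower in replicate 3 than in replicate 1. These folds rest on 10 against 100 counts for Rsad2 and 8 against 73 for Ifi44. The counting intervals of the log2 ratio were −4.28 to −2.24 for Rsad2 and −4.31 to −1.99 for Ifi44. Bst2, encoding tetherin, which holds budding virus at the membrane, had 24.4, 22.04 and 12.2 CPM. The mitochondrial protein gene Ifi27 had 20.2, 22.01 and 12.7 CPM, and Ifi35 had 14.3, 15.5 and 10.9 CPM. Rtp4 (10.02, 11.5 and 2.70 CPM), Samd9l (5.11, 4.48 and 1.90) and Xaf1 (3.78, 3.31 and 0.981) were each called and lowest in replicate 3. The exonuclease gene Isg20 had 6.22, 6.55 and 5.21 CPM and was the 1 effector tested that was not called (adjusted p = 0.11), although it passed without replicate 1 and with replicates 1 and 2 summed.

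All 5 guanylate-binding and immunity-related GTPase genes, whose proteins attack the vacuoles of intracellular pathogens and respond mainly to interferon gamma, were detected. Irgm1, a regulator of the family, had 97.6, 98.1 and 44.99 CPM and lay 9.53-fold above Irgm2 per base (6.70 to 16.2). Irgm2 had 7.77, 9.28 and 1.75 CPM and Igtp 6.27, 6.24 and 1.47 CPM. Gbp2 had 7.38, 8.21 and 3.55 CPM and Gbp3 5.11, 5.42 and 1.59 CPM. All 5 were called and lowest in replicate 3, with log2 ratios to replicate 1 from −2.15 (Irgm2) to −1.05 (Gbp2), each below the fifth percentile of all genes tested (−1.01). Igtp and Irgm2 overlap on chromosome 11 and share 162 exon bases on the same strand, where reads of one cannot be told from the other.

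Parp9 and its partner Dtx3l, an ADP-ribosyltransferase and a ubiquitin ligase that act as a complex, are transcribed in opposite directions on chromosome 16, between 35926511 and 35972605. Parp9 had 19.6, 16.1 and 7.81 CPM and Dtx3l 13.2, 13.3 and 6.47 CPM. Their ratio per base varied little, from 1.42 to 1.74. They share 458 exon bases on opposite strands, and the strand setting is not given in the sources used here. Parp14, their neighbour, had 8.19, 9.42 and 1.59 CPM and lay 5.18-fold below Parp9 per base (3.27 to 9.30), a difference that did not exceed the spread without length scaling. The ubiquitin ligase gene Trim25, which acts on the sensor RIG-I, had 80.6, 80.6 and 66.8 CPM. Trim21, the antibody receptor of the cytosol, had 3.64, 5.45 and 1.81 CPM and differed between replicates 1 and 2 as well.

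Across the effectors, 31 of 32 tested were called, and all 31 had their lowest value in replicate 3, against 32.0% of all genes tested. In the signalling group the count was 14 of 19. The median log2 ratio of replicate 3 to replicate 1 was −1.09 over effectors tested and −0.49 over signalling members tested, against −0.00 over all genes tested. Between replicates 2 and 1 the medians were 0.01 for effectors and −0.00 for signalling members. For 22 of 51 members the log2 ratio of replicate 3 to replicate 1 lay under the fifth percentile of that ratio over all genes tested. For the ratio of replicate 3 to replicate 2 the count was 26. Summed over the 35 effectors, the level was 841, 838 and 509 CPM, and over the 22 signalling members 1007, 1007 and 807 CPM. Of the 51 members tested, Irf5, Mx1, Mx2 and Ifi44 had under 10 counts in a library and passed the count minimum through their mean; with a minimum mean of 50 counts, 41 of 46 members were called and lowest in replicate 3. Among marker lists, the summed blood and immune markers were not lowest in replicate 3. Of the 6 tumour line markers, 5 were called and 4 were lowest in replicate 3, with log2 ratios to replicate 1 of −0.63 for Sox9, −0.23 for Pdgfb, −0.20 for Cd44 and −0.13 for Nes. Of the mature neural markers, Syt1 had 43, 25 and 1 counts and was also called by the stricter test described next (adjusted p = 0.0061 with edgeR's common dispersion). The part of these marker differences in the members' values was not tested. The shares of reads assigned to no feature and of alignments not unique were highest in replicate 3, and their part in these differences was not tested.

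**Figure D3:**
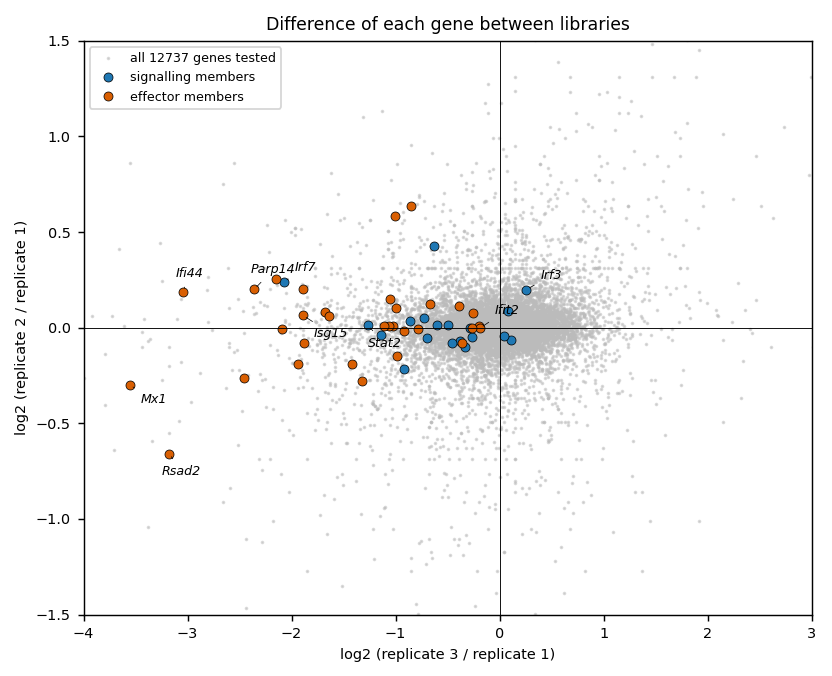
Log2 ratio of replicate 3 to replicate 1 (horizontal) and of replicate 2 to replicate 1 (vertical) for all 12737 genes tested (grey), signalling members (blue) and effectors (orange); 32 genes lie outside the axes. Every effector lies left of 0 on the horizontal axis, while members scatter to both sides of 0 on the vertical one.

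A stricter test asked which genes varied more than genes in general did between these libraries. It added the common dispersion estimated with edgeR (0.0294) to the counting noise. That dispersion was 0.0465 without replicate 1, 0.0480 without replicate 2 and 0.00042 without replicate 3. The test took the 3 libraries as equal draws although replicates 1 and 2 lay close together, so its adjusted p-values may be too small. The stricter test called 1.95% of all genes tested, 1.11% with the lowest and 0.840% with the highest value in replicate 3. Of 51 members it called 12, all lowest in replicate 3: Irf7, Oasl2, Ifi44, Isg15, Usp18, Rsad2, Rtp4, Xaf1, Gbp3, Igtp, Irgm2 and Parp14. Their adjusted p-values from this edgeR-based test ran from 0.00095 (Parp14) to 0.034 (Gbp3 and Xaf1). Irf7 was the 1 signalling member among them. The count fell to 5 without replicate 2, where 0.547% of all genes tested were called. It fell to 3 with edgeR's trended dispersion, where Isg15 and Parp14 remained, Irgm1 was added and 1.099% of all genes were called. With replicates 1 and 2 summed as 1 library, an alternative chosen after seeing the data, it was 0, against 0.381% of all genes. In that setting 24 of 52 members had an unadjusted p under 0.05, against 6.67% of all genes.

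**Figure D4:**
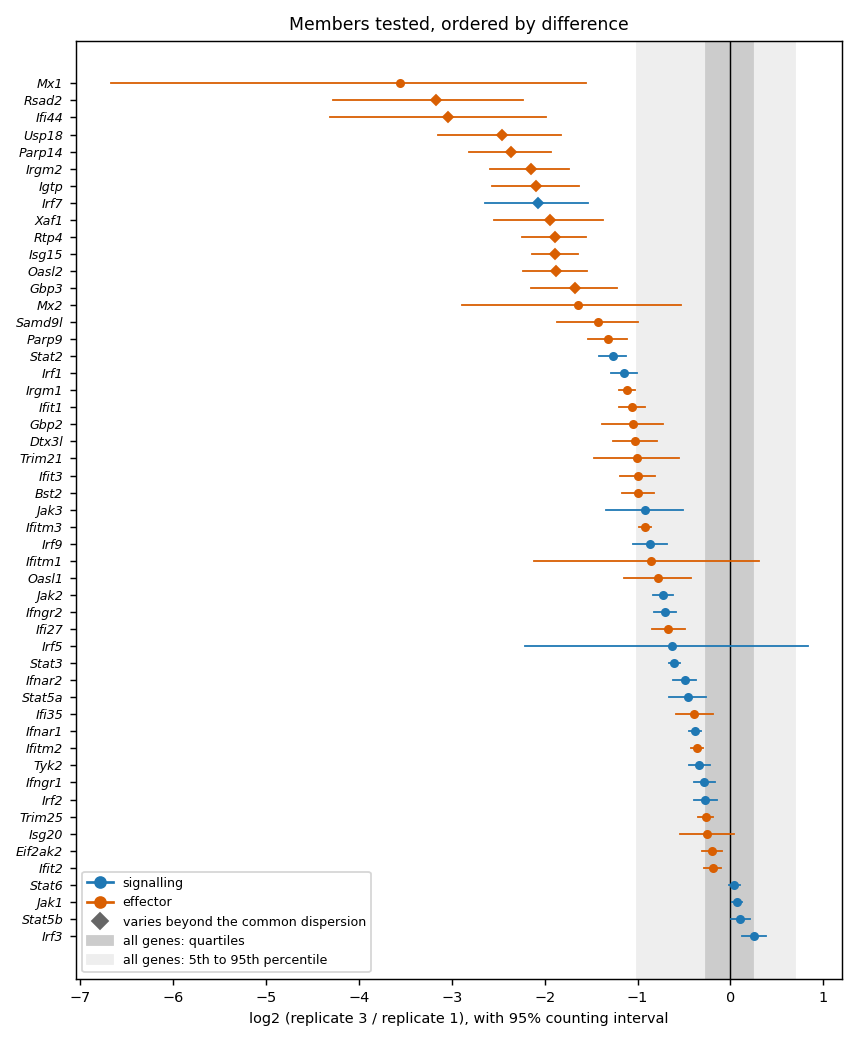
Log2 ratio of replicate 3 to replicate 1 for the 51 members tested, with the 95% counting interval; diamonds mark the 12 members that varied beyond the common dispersion, and grey bands the quartiles and the fifth to 95th percentiles of all genes tested. Mx1, Rsad2 and Ifi44 lie farthest left, and Irf3, Stat5b, Jak1 and Stat6 lie right of 0.

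Other interferon-induced genes, from a list of 35 symbols of which 34 were in the files, were read beside the members. That list was also chosen with earlier results of these data known, so it is not an independent check. Of these 34, 20 were detected and 30 tested; 26 were called (86.7%, against 65.8% of all genes tested), and all 26 had their lowest value in replicate 3. Ly6e (296, 269 and 216 CPM), Pml (134, 138 and 117 CPM), Mov10 (102, 96.8 and 62.1 CPM) and Lgals3bp (57.2, 54.4 and 30.6 CPM) were highest. Sp100, at 0 counts, Slfn2, Gbp5, Iigp1 and Gbp6 lay below detection in all libraries. The pattern was shared by the chemokine genes Ccl5 (13.9, 13.1 and 3.003 CPM) and Cxcl10 (9.05, 9.07 and 2.85 CPM), and not by Gbp9 (8.16, 8.24 and 8.24 CPM); these 3 genes were chosen after their values were seen.

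Within libraries, 22 pairs of related members were compared per base, and 18 differed by more than the spread between replicates (all 3 libraries on the same side and a mean above 2 SD). The exact two-sided sign-flip permutation p was 0.25 for 21 of the pairs, the smallest that 3 libraries allow, and 0.75 for Ifitm3 against Ifitm2. The 4 pairs within the spread were Irf1 and Irf2, Ifit2 and Ifit1, Ifitm3 and Ifitm2, and Oasl2 and Oasl1. Of the pairs not given above, Stat3 lay 3.16-fold above Stat2 (2.71 to 4.30), Gbp2 lay 2.197-fold above Gbp3 (1.87 to 2.88), Trim25 lay 14.8-fold above Trim21 (9.52 to 23.7) and Ifngr1 lay 1.41-fold above Ifnar2 (1.34 to 1.56).

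**Figure D5:**
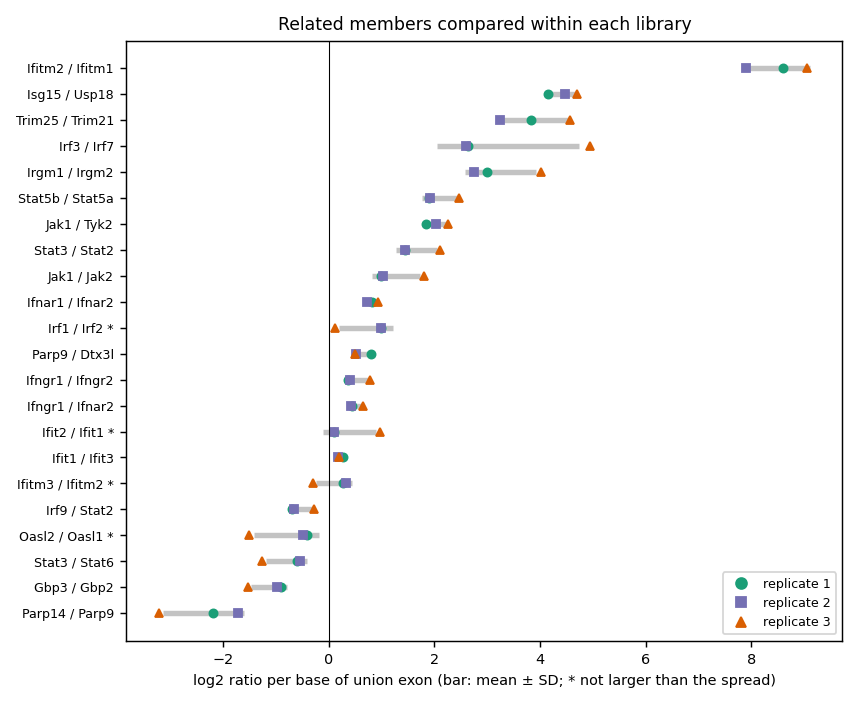
Log2 ratio per base of union exon for 22 pairs of related members in each library, with bars for the mean ± SD; asterisks mark the 4 pairs not larger than the spread. Replicate 3 lies apart from the other libraries in most pairs, and for Ifitm3 and Ifitm2 it falls on the other side of 0.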

How the data were processed

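RNA-seq was deposited for 3 SB28 libraries. Per the labels, a TruSeq RNA kit and 1 µg of total RNA were used. The authors deposited raw counts per gene symbol. HTSeq, Bowtie2 2.2.4 and the build mm10 are listed, per the submitters' processing notes, without role or order; annotation and strand setting are not given in the sources used here. The 5 summary lines per file were left out. Members and lists were chosen with earlier results of these data known. Named genes follow a rule: all members, and the 4 highest of each further list together with undetected ones where fewer than 6 exist. The blood and immune markers and the mature neural markers were summarised without applying this rule. Outside it, the ligand genes, Socs1, Sox9, Syt1, Ccl5, Cxcl10, Gbp9 and relatives sharing sequence with members were named after their values were seen.

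CPM and length-scaled CPM were computed with union exon lengths from GENCODE M21 (GRCm38). Library sizes were scaled by TMM (edgeR 4.0.16, R 4.3.3) for the test between libraries, which used mean counts of at least 10 and an adjusted p of at most 0.05. The NB form of this test adds edgeR's common dispersion. Pair ratios used a pseudocount of 0.5 counts. Counting intervals are exact binomial at 95%, and the limit for 0 counts is 3 counts; both cover counting error only. Shared 50-base stretches were counted over all GENCODE transcripts, and read length is not given in the sources used here. Promoter letters come from RefSeq. An edgeR quasi-likelihood contrast needs groups and was not run. Steps were tested on simulated data. Alternatives were DESeq2 1.42.0 size factors, total counts, other count minimums and thresholds, other lengths and pseudocounts, and leaving out each library. Python 3.11.15 with scipy 1.17.1 was used.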

Additional observations from a re-analysis of the deposited data

How the results depend on the processing

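The number of members detected (43) ran from 31 at 5 CPM to 47 without replicate 3. The number varying beyond counting noise (48 of 51 tested) ran from 44 to 50 under all alternatives that kept replicate 3. The lowest was 44 of 46 tested, at a minimum mean of 50 counts. The highest was 50 of 52, with replicates 1 and 2 summed. Over all genes tested, 50.2% to 70.6% were called under these alternatives. Without replicate 3 the number was 1 of 52, against 1.89% of all genes. Leaving out 1 replicate at a time gave 1 to 47 members. The number called and lowest in replicate 3 (45 of 51) ran from 41 of 46 to 47 of 52. It was 44 to 45 of 50 when replicate 2 or 1 was left out. Over all genes tested this share ran from 23.9% to 34.6%. The number varying beyond the common dispersion (12) was 3 with edgeR's trended dispersion and 0 with replicates 1 and 2 summed; leaving out 1 replicate gave 0 to 10, with 0 without replicate 3 (4 of 52 members at an unadjusted p under 0.05, against 5.27% of all genes). The number of pairs larger than the spread (18) ran from 15 without length scaling to 22 without replicate 3. Without length scaling 3 pair ratios turned on the log2 scale: Stat3 to Stat6 (0.31), Irf1 to Irf2 (−0.20) and Oasl2 to Oasl1 (0.49). Ifitm3 to Ifitm2 was −0.0153 to 0.297 when 1 replicate was left out, lowest without replicate 2, and −0.00082 with replicates 1 and 2 summed. The causes were not tested. No paired analysis was possible because the labels give 1 group. With 3 libraries, of which replicates 1 and 2 lie close together, the differences described rest on replicate 3; genes with few counts, such as Mx1, Irf8 and Oas1a, are limited by depth.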

Other observations

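Of the relatives of the members, which are not members themselves, Ifit3b was detected, with 434 counts over the 3 libraries together. The others had low counts. Ifit1bl1 and Ifit1bl2 had 48 and 37 counts over the 3 libraries together, against 3030 for Ifit1. Oas1b and Oas1c had 14 counts each, and Oas1g had 0. Ifitm7 had 10 counts. Gm12250 had 11, 14 and 6 counts.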
